A study of Mus musculus with 12 samples.

Results

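The genes described here are 10 Toll-like receptors of the mouse, Tlr1, Tlr2, Tlr3, Tlr4, Tlr6, Tlr7, Tlr8, Tlr9, Tlr11 and Tlr13. They were taken by gene symbol, matched to the Ensembl identifiers of the count tables, and are 10 of the 31053 genes counted. Following their textbook location they were split into 4 surface receptors (Tlr1, Tlr2, Tlr4, Tlr6) and 6 endosomal receptors (Tlr3, Tlr7, Tlr8, Tlr9, Tlr11, Tlr13).

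Messenger RNA was sequenced in dendritic cells that had been grown out of C57BL6 bone marrow (genotype WT), in a series whose title concerns protection from acute kidney injury. All 4 groups, of 3 libraries each, were taken at day 7 and enriched for living CD11c+ cells. The groups were untreated cells (BMDC), BMDC with LPS (BMDC_LPS), tolerogenic cells (TolDC) generated with VitD3 (vitamin D3) and IL10, and TolDC with LPS (TolDC_LPS). The sources used here give neither doses nor the duration of LPS. No label says that the 3 libraries of a group came from separate mice or cultures, so p-values measure the spread between these libraries, which may be technical.

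Toll-like receptors are germline-encoded sensors with a leucine-rich ectodomain that binds microbial molecules and a cytoplasmic TIR domain that recruits adaptor proteins. The surface receptors mainly recognise bacterial lipids and lipoproteins. The endosomal receptors mainly recognise nucleic acids and reach the endosome with the chaperone Unc93b1. Signalling runs through Myd88 or, for Tlr3 and in part Tlr4, through Ticam1, and leads to NF-kB and interferon regulatory factors. In dendritic cells these receptors start the maturation that precedes antigen presentation to T cells. LPS, a lipid of the outer membrane of Gram-negative bacteria, is the ligand of Tlr4 in complex with Ly96.

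The libraries held 21844405 to 41764975 reads assigned to genes. At these depths 3 counts in a library correspond to 0.0718 to 0.137 CPM, the count of a gene scaled to a common library total, and all 10 receptors passed the filter on low counts. Itgax, which encodes CD11c, ranged from 1250.5 to 2252.9 CPM over the 12 libraries. It is 1 of 6 genes listed for dendritic cells, with Cd74, H2-Aa, H2-Ab1, Zbtb46 and Flt3. Their sum was 6938.8 to 7296.1 CPM in BMDC and 10047.8 to 11585.1 in BMDC_LPS. In TolDC it was 8035.2 to 8484.4 CPM and in TolDC_LPS 10067.0 to 12059.7, with Cd74 the largest part. Cd74, H2-Aa and H2-Ab1 were higher with LPS and Itgax lower. Zbtb46 was at 29.4 to 33.69 CPM in BMDC and 60.36 to 69.2 in BMDC_LPS. In TolDC it was at 14.48 to 18.56 CPM and in TolDC_LPS at 14.73 to 17.95. Flt3, a receptor of dendritic cells grown with its ligand, stayed at or under 1.75 CPM, and Xcr1 and Cadm1, of 6 genes listed for conventional type 1 dendritic cells, at or under 0.292 CPM. The others on that list, mainly Wdfy4, Batf3 and Clec9a, were present and carry its sum, given with the other marker lists after the receptors. Libraries carrying the number 1 stood apart from those numbered 2 and 3 in genes of neutrophils and their precursors. The summed level of 9 such genes was 600.0, 2510.0 and 2439.7 CPM in BMDC, 330.1, 1614.5 and 1462.0 CPM in BMDC_LPS, 123.4, 627.1 and 613.5 CPM in TolDC, and 166.8, 494.8 and 413.5 CPM in TolDC_LPS. These libraries were also the lowest of their group in the summed genes of mast cells and basophils (26.32 to 48.83 CPM against 107.4 to 239.4). The same held for the summed genes of T and NK cells (1.20 to 2.42 CPM against 4.28 to 10.8). It also held for those of eosinophils (35.94 to 216.5 CPM against 104.5 to 280.4). Of the eosinophil genes, Prg2 and Epx were lowest there in each group. Siglecf was highest there in BMDC (192.2, 180.5 and 186.3 CPM) and BMDC_LPS (68.36, 52.11 and 55.64). In TolDC Siglecf was at 60.12, 60.7 and 61.21 CPM and in TolDC_LPS at 5.549, 6.154 and 6.094.

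Levels were first set side by side between receptors as CPM per kilobase of exon sequence. In BMDC the order was led by Tlr13, a sensor of bacterial ribosomal RNA, at 28.96 ± 1.58 CPM per kilobase (SD, n = 3), ahead of Tlr4 at 22.72 ± 0.882. Tlr2, Tlr7 and Tlr8 followed at 12.8, 12.1 and 12.1 CPM per kilobase, with library values that overlapped between neighbours. Below them came Tlr11 at 6.19, Tlr6 at 2.79, Tlr1 at 2.26, Tlr9 at 1.72 and Tlr3 at 0.367 CPM per kilobase, none overlapping the next. TolDC kept Tlr13 first at 23.4 ± 1.13 and Tlr4 next at 17.4 ± 0.327 CPM per kilobase. In BMDC the lead of Tlr13 over Tlr4 rests on the length used, because with the longest transcript in place of merged exons Tlr4 came to 30.96 and Tlr13 to 30.7 CPM per kilobase. In TolDC Tlr13 kept the lead with that length, at 24.8 against 23.7.

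With LPS the order was another one. Tlr2, the receptor for bacterial lipoproteins, led in BMDC_LPS at 45.0 ± 4.26 CPM per kilobase, followed by Tlr4 at 10.9 ± 0.321. In TolDC_LPS it led at 57.7 ± 5.77, followed by Tlr13 at 17.8 ± 1.54. At the bottom of the order stood Tlr3 in BMDC_LPS, at 0.489 ± 0.0746 CPM per kilobase, and Tlr11 in TolDC_LPS, at 0.0143 ± 0.00727. Neighbours whose libraries overlapped were Tlr13 and Tlr1, and Tlr9 and Tlr6, in BMDC_LPS, Tlr7 and Tlr2 in TolDC, and Tlr4 and Tlr7 in TolDC_LPS.

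**Figure D1:**
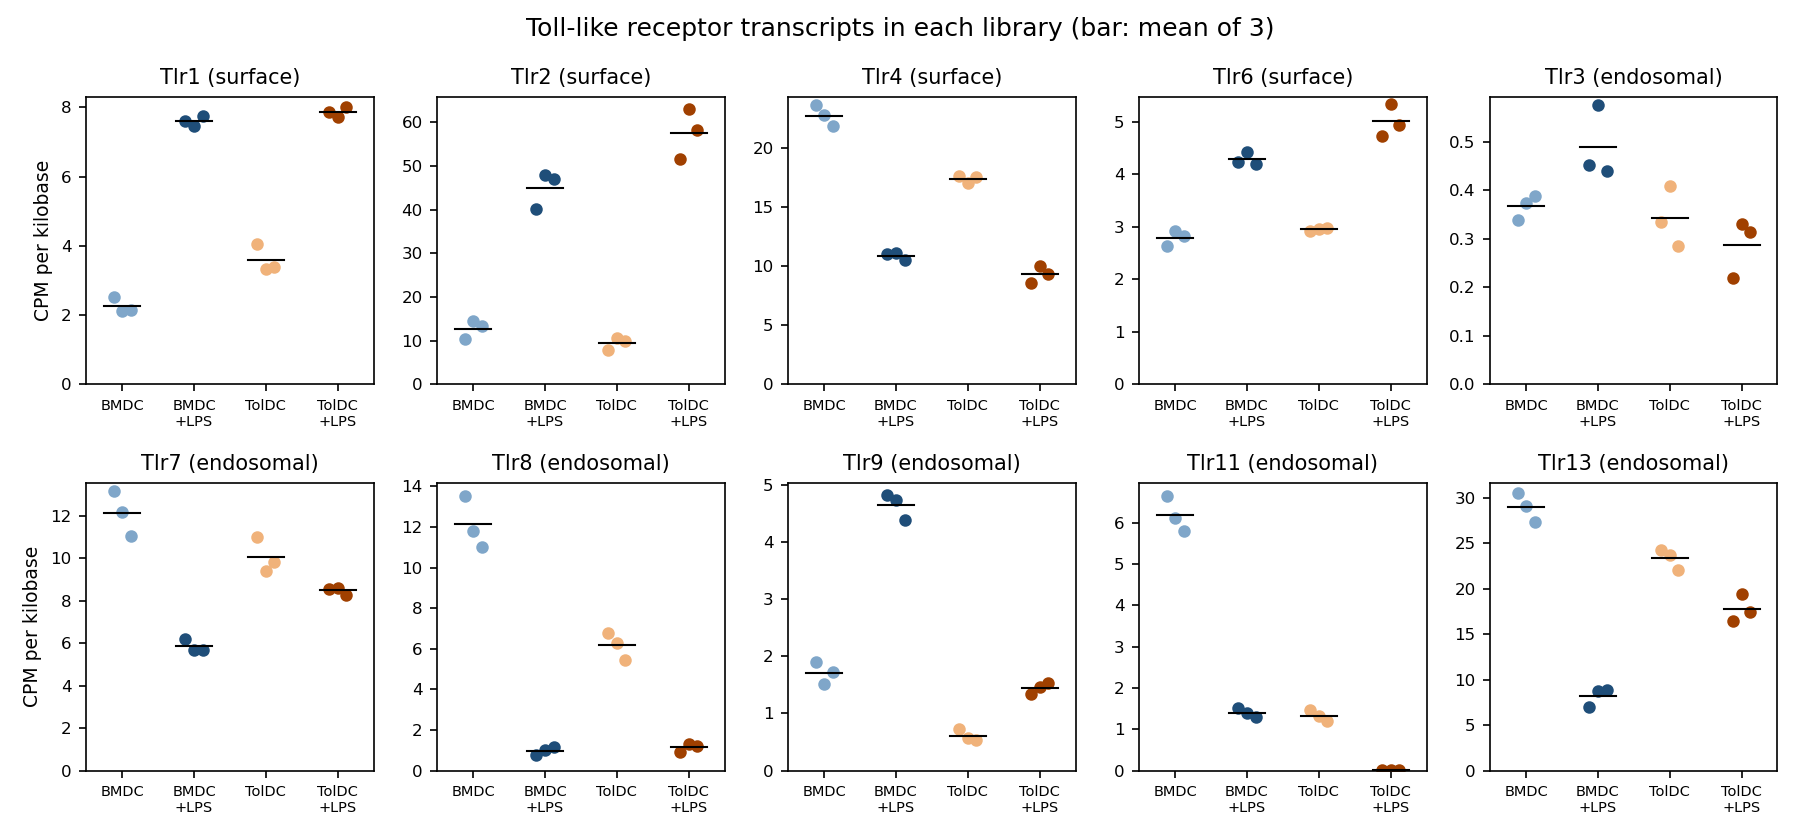
Level of each Toll-like receptor in CPM per kilobase of merged exons (vertical axes, linear and different for each gene) in the 12 libraries, which are the points, in the groups BMDC, BMDC with LPS, TolDC and TolDC with LPS. The bar is the mean of 3 libraries. Tlr1, Tlr2, Tlr6 and Tlr9 sit higher with LPS and Tlr4, Tlr7, Tlr8, Tlr11 and Tlr13 lower in both kinds of cell.

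The first question was how the receptors respond to LPS in BMDC. LPS raised 4 receptors and lowered 5 of the 10, at a Benjamini-Hochberg adjusted p below 0.05 in edgeR's quasi-likelihood test over 13141 genes, where 73.2% of all genes were called (36.7% higher and 36.4% lower). Among the surface receptors 3 rose and 1 fell (median log2 change 1.18). Among the endosomal receptors 1 rose, 4 fell and 1 did not pass, with a median of -1.44, beside a median near 0 over all genes tested. The 3 libraries with and the 3 without LPS did not overlap in any of the 10 receptors (5 higher and 5 lower), nor in 74.8% of all genes. In RNA from bulk cells, fewer cells of a type and less RNA per cell cannot be told apart.

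Tlr4, the receptor for LPS itself, was at 131, 126 and 121 CPM in the BMDC libraries and at 61.2, 61.6 and 58.3 CPM in BMDC_LPS. The groups did not overlap, and Tlr4 fell by 1.06 on the log2 scale (SE 0.0496, adjusted p = 4.72e-13), to 0.478 of its level. It was the one surface receptor that went down with LPS.

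Tlr2 was at 31.2, 43.9 and 40.2 CPM in BMDC and at 121, 144 and 142 CPM in BMDC_LPS. It rose by 1.82 on the log2 scale (SE 0.155, adjusted p = 4.21e-06), which is 3.53-fold, with no overlap. In every one of the 4 groups the library numbered 1 held the lowest Tlr2, which is also the library with the fewest counts of the neutrophil genes given above. Within the numbers the rise was of 1.96, 1.72 and 1.82, and without the 4 libraries numbered 1 it was 1.76 (adjusted p = 1.53e-37). The promoter sequence of Tlr2 is shown because its region before the start site holds a match to the NF-kB consensus, in capitals. It is on GRCm38.p6 at chr3:83841768-83841858, minus strand, from RefSeq, and covers the 91 bases of the promoter entry that lie outside annotated exons.
Tlr2: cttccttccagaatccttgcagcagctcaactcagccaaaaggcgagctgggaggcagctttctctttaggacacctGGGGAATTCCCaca
The match is read on both strands, 172 to 173 bases before the RefSeq start. The same consensus occurs in 7.25% of 32851 promoter windows of 250 bases. Of the receptors Tlr3, which did not pass with LPS in either kind of cell, also holds a match, 211 bases before its RefSeq start and inside an annotated exon. Such a match is a description of the letters, not of bound protein.

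Tlr1 and Tlr6 are the partners with which Tlr2 forms heterodimers, Tlr1 for triacylated and Tlr6 for diacylated lipopeptides. Tlr1 was at 8.47, 7.07 and 7.15 CPM in BMDC and at 25.4, 24.9 and 25.9 CPM in BMDC_LPS, a rise of 1.75 (log2, SE 0.0804, adjusted p = 3.91e-13). Tlr6 was at 9.81, 10.9 and 10.5 CPM in BMDC and at 15.8, 16.5 and 15.6 CPM in BMDC_LPS, a smaller rise of 0.62 (SE 0.0703, adjusted p = 2.27e-07). Neither gene overlapped between the groups. The ratio of Tlr1 to Tlr6 per kilobase thus went from 0.720 to 0.962 in the BMDC libraries to 1.68 to 1.85 in BMDC_LPS. Both genes lie on chromosome 5, separated by 18467 bases, and their annotated transcripts share a run of 229 identical bases, with 454 words of 50 bases in common. These words are 13.6% of those of Tlr1 and 12.3% of those of Tlr6, and since reads that match several places are not counted, the levels of both are uncertain. No other pair of receptors shares a run longer than 18 bases.

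Of the endosomal receptors, Tlr8 fell the most. This sensor of RNA was at 48.6, 42.4 and 39.5 CPM in BMDC and at 2.74, 3.59 and 4.23 CPM in BMDC_LPS, a change of -3.65 (log2, SE 0.158, adjusted p = 3.07e-10) or 12.5-fold lower. Its neighbour on chromosome X, Tlr7, the receptor for single-stranded RNA, lies 40599 bases away. Tlr7 was at 53.8, 49.7 and 45.2 CPM in BMDC and at 25.4, 23.2 and 23.2 CPM in BMDC_LPS, a change of -1.05 (SE 0.0675, adjusted p = 8.38e-11). Both genes fell without overlap, Tlr8 by the larger factor, so that the ratio of Tlr7 to Tlr8 per kilobase went from 0.974 to 1.03 in BMDC to 4.82 to 8.12 in BMDC_LPS.

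Tlr13 was at 131, 125 and 118 CPM in BMDC and at 30.2, 37.7 and 38.2 CPM in BMDC_LPS. It fell by 1.82 on the log2 scale (SE 0.0889, adjusted p = 1.11e-09) with no overlap. Tlr11, which recognises profilin of protozoan parasites, was at 21.7, 20.0 and 19.0 CPM in BMDC and at 4.96, 4.56 and 4.23 CPM in BMDC_LPS, a fall of 2.14 (SE 0.0976, adjusted p = 3.54e-13), again without overlap.

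Tlr9, the receptor for unmethylated CpG DNA, went the other way from the endosomal receptors that fell. It was at 6.60, 5.28 and 6.03 CPM in BMDC and at 16.8, 16.5 and 15.3 CPM in BMDC_LPS. The groups did not overlap, and the rise of 1.44 (log2, SE 0.101, adjusted p = 2.33e-10) was 2.72-fold. Tlr3, the receptor for double-stranded RNA, was the least abundant receptor in BMDC and at 1.76, 1.95 and 2.02 CPM there. In BMDC_LPS it was at 2.36, 3.00 and 2.29 CPM. Although these libraries did not overlap, the difference of 0.41 (SE 0.189) missed the threshold (adjusted p = 0.0579). It passed in 3 of 20 alternative fits: with unstranded counts (adjusted p = 0.0334), with a replicate block, and without the first TolDC_LPS library (adjusted p = 0.0384).

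The promoter sequence of Tlr9 is shown beside that of Tlr2 because Tlr9 alone of the endosomal receptors rose. Its window, on GRCm38.p6 at chr9:106222348-106222597, plus strand, from RefSeq, holds the AP-1 motif TGACTCA in capitals, 58 bases before the start site and read on both strands.
Tlr9: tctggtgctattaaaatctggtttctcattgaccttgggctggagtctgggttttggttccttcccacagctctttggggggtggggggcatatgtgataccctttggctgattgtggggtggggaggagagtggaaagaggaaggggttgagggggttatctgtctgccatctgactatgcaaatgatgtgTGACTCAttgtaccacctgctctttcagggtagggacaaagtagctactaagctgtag
AP-1 matches occur in 6.75% of the 32851 windows. No NF-kB consensus was found in this window of Tlr9. Of the 10 receptors, 8 have a promoter entry, and Tlr4 and Tlr7 have none.

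The same question in TolDC gave the same counts by class. LPS raised 4 and lowered 5 of the 10 receptors, where 71.3% of all genes were called (35.4% higher and 35.9% lower). Among the surface receptors 3 rose and 1 fell (median log2 change 0.95), and among the endosomal receptors 1 rose, 4 fell and 1 did not pass (median -0.32). In 9 receptors the libraries did not overlap (4 higher and 5 lower), nor did they in 75.6% of all genes.

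Tlr2 was at 23.4, 31.9 and 29.9 CPM in TolDC and at 156, 190.4 and 175 CPM in TolDC_LPS. The groups did not overlap, and the rise was of 2.61 (log2, SE 0.159, adjusted p = 3.82e-07), or 6.12-fold. Tlr1 went from 13.6, 11.2 and 11.4 CPM to 26.3, 25.9 and 26.8 CPM, a rise of 1.13 (SE 0.075, adjusted p = 1.05e-10). Tlr6 went from 10.9, 11.02 and 11.1 CPM to 17.6, 19.9 and 18.5 CPM, a rise of 0.76 (SE 0.0681, adjusted p = 8.38e-09). All 3 lipopeptide receptors were higher in each TolDC_LPS library than in any TolDC library.

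Tlr4 was at 98.1, 94.6 and 97.3 CPM in TolDC and at 47.7, 55.7 and 52.0 CPM in TolDC_LPS. It fell by 0.90 (log2, SE 0.0495, adjusted p = 6.38e-12) without overlap, as the one surface receptor to go down. Tlr9 was at 2.50, 2.00 and 1.83 CPM in TolDC and at 4.64, 5.08 and 5.30 CPM in TolDC_LPS. It rose by 1.25 (SE 0.128, adjusted p = 5.53e-08), also without overlap.

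Tlr11 was nearly undetected after LPS in TolDC. Its levels were 4.76, 4.29 and 3.95 CPM in TolDC against 0.0326, 0.0336 and 0.0743 CPM in TolDC_LPS, where the 3 libraries held 1, 1 and 3 counts. Over the group that is 5 counts against 337 in TolDC, a ratio of 86.95 in CPM with a 95% counting interval of 36.89 to 269.5. The interval covers counting error only. edgeR's fitted change was -6.32 (log2, SE 0.239, adjusted p = 2.32e-14), a value that depends on the prior count. This SE is too small, since its 95% interval of -6.82 to -5.82 is narrower, on the same scale, than that of counting error alone. Tlr11 met the filter on low counts through its other groups.

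Tlr8 went from 24.4, 22.5 and 19.6 CPM in TolDC to 3.20, 4.74 and 4.36 CPM in TolDC_LPS, a change of -2.43 (log2, SE 0.151, adjusted p = 1.36e-08). Tlr7 went from 44.9, 38.3 and 40.2 CPM to 35.0, 35.1 and 33.8 CPM, a change of only -0.25 (SE 0.0645, adjusted p = 0.00223). Tlr13 went from 104.5, 102 and 95.2 CPM to 70.7, 83.7 and 75.0 CPM, a change of -0.40 (SE 0.083, adjusted p = 9.66e-04). None of these 3 overlapped between the groups. Tlr3 overlapped, at 1.75, 2.12 and 1.48 CPM against 1.14, 1.72 and 1.64 CPM, and its difference of -0.24 (SE 0.197) did not pass (adjusted p = 0.29).

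**Figure D2:**
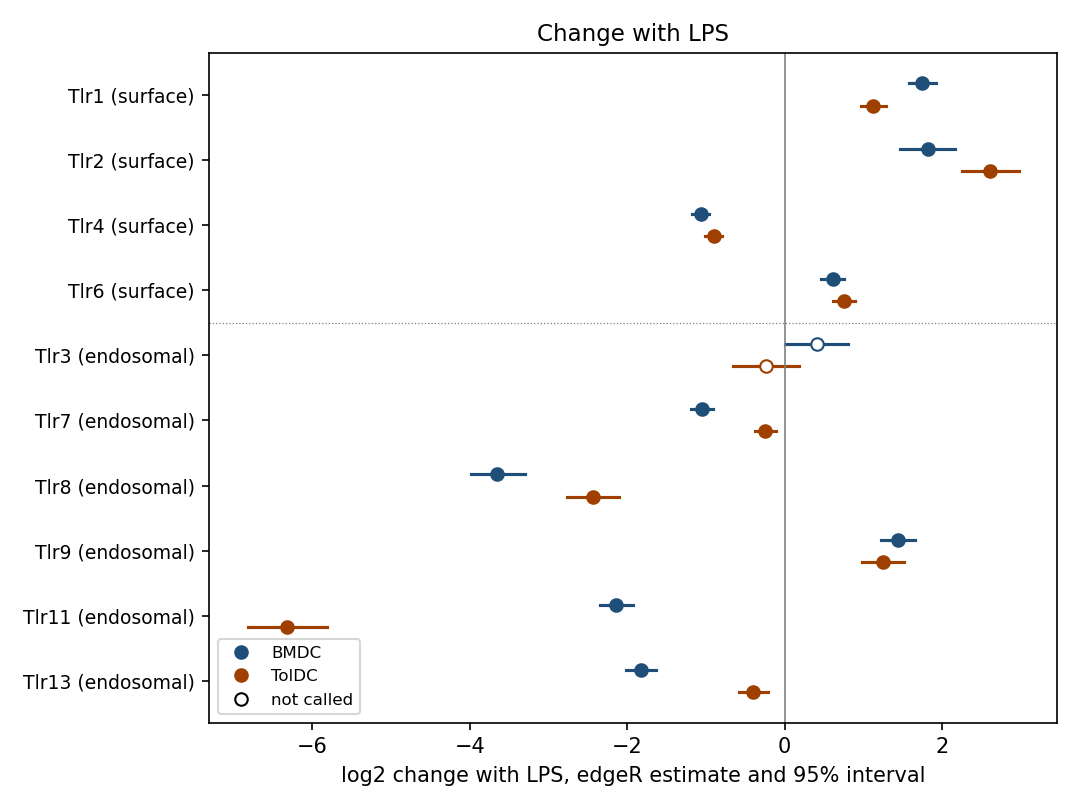
Log2 change with LPS of each receptor in BMDC and in TolDC (horizontal axis), as estimated by edgeR over 12 libraries, with the 95% interval as the line and open points where the adjusted p was not below 0.05. The surface receptors stand above the dotted line, and Tlr11 in TolDC lies farthest from 0, at -6.32. The interval drawn for Tlr11 in TolDC is narrower than that of counting error alone.

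Whether the response to LPS differed between TolDC and BMDC was tested as the interaction of both factors. It passed for 6 of the 10 receptors (4 higher and 2 lower in TolDC), where 44.4% of all genes passed (20.4% higher and 24% lower). Of the surface receptors 1 was higher and 1 lower, and of the endosomal receptors 3 were higher and 1 lower.

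For the RNA sensors Tlr13, Tlr8 and Tlr7 the fall with LPS was smaller in TolDC. The difference between responses was 1.43 for Tlr13 (log2, SE 0.121, adjusted p = 1.37e-06), 1.22 for Tlr8 (SE 0.229, adjusted p = 9.51e-04) and 0.80 for Tlr7 (SE 0.0934, adjusted p = 1.64e-06). Tlr11 was the endosomal receptor whose fall was larger in TolDC, with a difference of -4.18 (SE 0.32, adjusted p = 7.06e-09). As with the change of Tlr11 in TolDC, this SE is too small for a difference that rests on 5 counts in TolDC_LPS.

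Among the surface receptors, the rise of Tlr2 was larger in TolDC by 0.79 (log2, SE 0.218, adjusted p = 0.0167, and 0.81 without the 4 libraries numbered 1) and that of Tlr1 smaller, at -0.62 (SE 0.11, adjusted p = 1.68e-04). The difference was 0.14 for Tlr6 (adjusted p = 0.25), 0.16 for Tlr4 (adjusted p = 0.0653), -0.19 for Tlr9 (adjusted p = 0.385) and -0.65 for Tlr3 (adjusted p = 0.062), none of which passed. Tlr4 passed in 5 of 19 alternatives, among them the fits without the third BMDC library (adjusted p = 0.0371) and without the first TolDC_LPS library (adjusted p = 0.00943). It also passed with no filter (adjusted p = 0.0245), with a replicate block, and without the 4 libraries numbered 1 (adjusted p = 0.00175). Tlr3 passed in 3 of 19: without the third TolDC library (adjusted p = 0.0386), without the second TolDC_LPS library (adjusted p = 0.0499), and with a replicate block.

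The next question was how TolDC differ from BMDC before LPS. Here 7 receptors were lower and 1 higher in TolDC, where 62.4% of all genes were called (32% higher and 30.4% lower). Of the 6 endosomal receptors 5 were lower, with a median log2 difference of -0.64, and of the surface receptors 1 was higher and 2 were lower (median -0.15). In 7 receptors the libraries did not overlap (1 higher and 6 lower), nor did they in 66.9% of all genes. This comparison shares its libraries with those of LPS above, where the value of each library stands.

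Tlr11 differed most, with a log2 difference of -2.23 (SE 0.0975), 4.69-fold lower in TolDC, and Tlr9 next, at -1.50 (SE 0.128), 2.83-fold lower. Tlr8 stood at -0.98 (SE 0.124), Tlr4 at -0.39 (SE 0.0481), Tlr13 at -0.31 (SE 0.0822) and Tlr7 at -0.27 (SE 0.0639). These 6 genes are those in which every TolDC library was below every BMDC library. Tlr1 was higher in TolDC by 0.67 (SE 0.0849, adjusted p = 1.59e-06).

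Tlr2 had a log2 difference of -0.44 (SE 0.165, adjusted p = 0.046), but its libraries overlapped, since the second TolDC library (31.9 CPM) lay above the first BMDC library (31.2 CPM). The call was lost in 11 of 20 alternative fits, 9 of which left out 1 library: BMDC 2 or 3, any of the 3 BMDC_LPS libraries, TolDC 1 or 3, or TolDC_LPS 2 or 3. Adjusted p-values over the alternatives ran from 3.43e-10 to 0.147. Within the numbers the difference was -0.41, -0.46 and -0.43, and without the 4 libraries numbered 1 it was -0.45 (adjusted p = 3.43e-10). Tlr6 (0.08) and Tlr3 (-0.10) did not pass.

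With LPS in both kinds of cell the picture was mixed. Against BMDC_LPS, 3 receptors were higher and 4 lower in TolDC_LPS, where 67.9% of all genes were called (34.3% higher and 33.7% lower). In 8 receptors the libraries did not overlap (4 higher and 4 lower), nor did they in 71.4% of all genes. Tlr13 was 2.17-fold higher (log2 difference 1.12, SE 0.089, adjusted p = 2.21e-07), Tlr7 higher by 0.53 (SE 0.0681, adjusted p = 1.73e-06) and Tlr6 by 0.22 (adjusted p = 0.00578). Tlr13 and Tlr7 thus lay on opposite sides of BMDC without and with LPS, lower in the first comparison and higher in the second.

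Lower in TolDC_LPS than in BMDC_LPS were Tlr11, Tlr9, Tlr3 and Tlr4. For Tlr11 the ratio over the group counts, 334 in BMDC_LPS against 5, was 92.98 (95% counting interval 39.45 to 288.2). Tlr9 was 3.23-fold lower (log2 difference -1.69, SE 0.101, adjusted p = 3.75e-11). The log2 difference of Tlr3 was -0.75 (SE 0.19, adjusted p = 0.00178) and that of Tlr4 -0.22 (SE 0.0506, adjusted p = 7.82e-04). Tlr9 was therefore lower in TolDC than in BMDC both without and with LPS.

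Tlr1 (0.05) and Tlr8 (0.24) did not pass. Tlr2 was higher in each TolDC_LPS library than in any BMDC_LPS library, by 0.36, and narrowly missed the threshold (SE 0.143, adjusted p = 0.0514). It passed in 9 of 20 alternatives, with adjusted p-values over all of them from 1.71e-12 to 0.153. Of the 9, 4 left out 1 library: BMDC 1 or 2, TolDC 1 or TolDC_LPS 1. DESeq2 (adjusted p = 0.044), limma-voom (adjusted p = 0.00778), the fit of only the 2 groups compared (adjusted p = 0.0269) and a replicate block also passed. The lowest adjusted p came without the 4 libraries numbered 1, where the difference was 0.35. Within the numbers the difference was 0.36, 0.40 and 0.30.

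**Figure D3:**
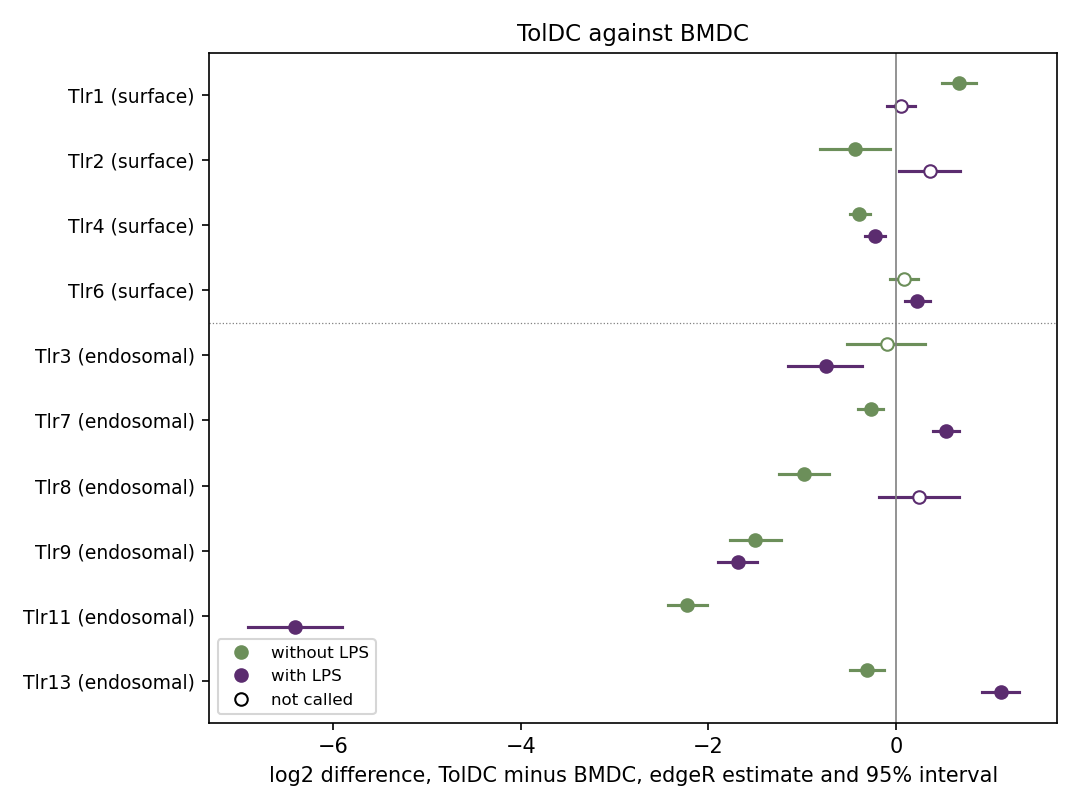
Log2 difference of each receptor between TolDC and BMDC (horizontal axis) without and with LPS, as estimated by edgeR over 12 libraries, with the 95% interval as the line and open points where the adjusted p was not below 0.05. Tlr9 and Tlr11 lie below 0 in both comparisons, whereas Tlr7 and Tlr13 lie below 0 without LPS and above it with LPS. The interval drawn for Tlr11 with LPS is narrower than that of counting error alone.

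The balance of both classes was then followed by summing CPM per kilobase over the receptors of a class in each library. The surface receptors made up 37.2%, 40.95% and 41.2% of the sum in the BMDC libraries and 75.2%, 76.2% and 76.1% in BMDC_LPS. In TolDC they made up 42.1%, 44.9% and 46.2%, and in TolDC_LPS 72.6%, 73.5% and 73.7%. The share was thus higher in every library with LPS than in any without.

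Both sides of the balance moved. The surface sum was 40.5 ± 1.67 CPM per kilobase in BMDC (SD, n = 3) and 67.8 ± 4.21 in BMDC_LPS, while the endosomal sum was 61.5 ± 4.39 and 21.6 ± 0.723. In TolDC and TolDC_LPS the surface sum was 33.4 ± 0.856 and 79.9 ± 6.74, and the endosomal sum 41.9 ± 2.58 and 29.1 ± 1.89 CPM per kilobase. Within the surface receptors Tlr4 gave 53.7% to 60.3% of the sum in BMDC and Tlr2 gave 63.7% to 67.7% in BMDC_LPS. Within the endosomal receptors Tlr9 gave 2.49% to 3.02% in BMDC and 20.1% to 23.2% in BMDC_LPS, but 4.68% to 5.29% in TolDC_LPS, where Tlr13 gave 59.9% to 62.4%. These sums are dominated by the abundant receptors and carry no test.

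**Figure D4:**
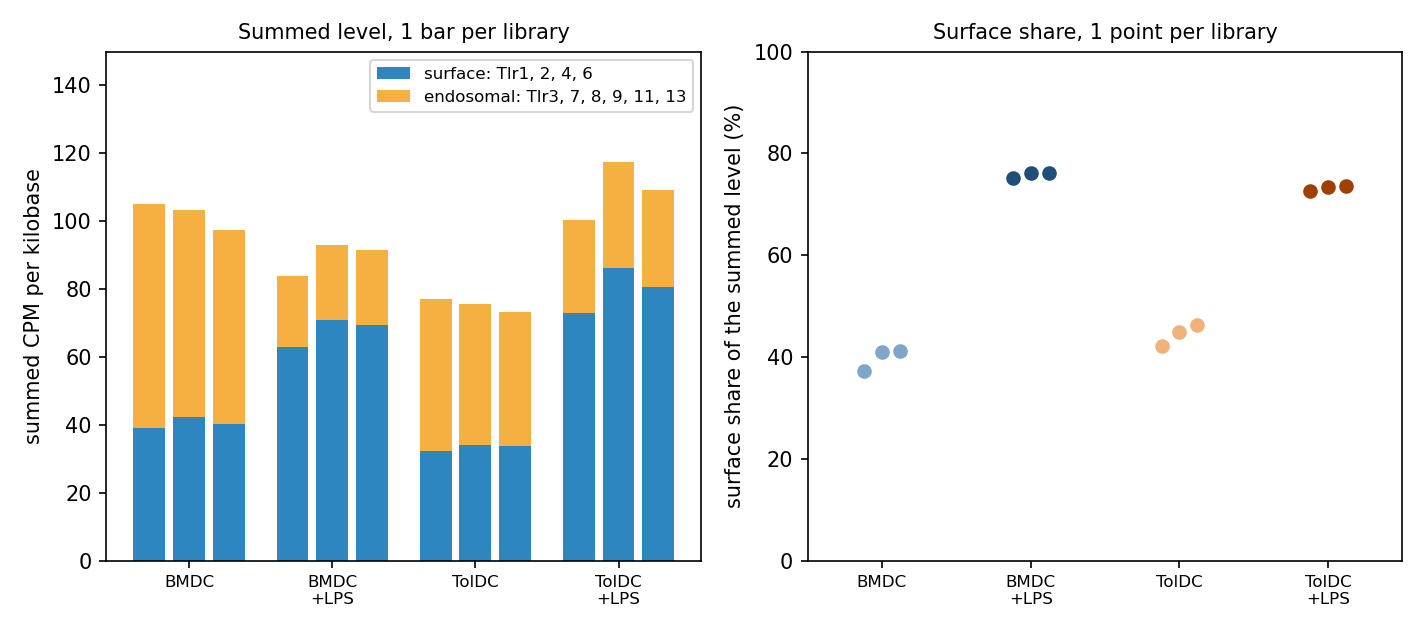
Summed CPM per kilobase of surface and endosomal receptors, stacked, with 1 bar per library (left), and the surface share of that sum in percent, with 1 point per library (right), in the 4 groups. The 6 libraries with LPS lie between 72.6% and 76.2%, above the 6 without LPS, which lie between 37.2% and 46.2%.

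Over the 12 libraries some receptors followed each other closely, as a description that carries the group differences above. Pearson's r of log2 CPM was 0.96 between Tlr7 and Tlr13, 0.97 between Tlr4 and Tlr8, 0.97 between Tlr2 and Tlr6 and -0.98 between Tlr1 and Tlr4. Among up to 9843 protein-coding genes, those most like each receptor were Alkbh5 and Pcm1 for Tlr1, Zfp710 and Sla for Tlr4, Map4k4 and Ifnar2 for Tlr6, Vwf and Nceh1 for Tlr7, Add3 and Arhgap15 for Tlr8, Sdcbp2 and Cdkn1a for Tlr9 and Nucb2 and Dhrs3 for Tlr13, with r from 0.987 to 0.997. Tlr3 had the lowest values, with Prkd2 at 0.907 and Tgtp1 at 0.894.

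The genes most like Tlr2 were Hp (r = 0.996), which encodes haptoglobin, and Fpr1 (r = 0.995), a receptor for formylated bacterial peptides carried by neutrophils and monocytes. Those most like Tlr11 were Plet1 and Siglecf, both with r = 0.997. Siglecf, which encodes a lectin used to recognise eosinophils, was at 186, 58.7, 60.7 and 5.93 CPM in BMDC, BMDC_LPS, TolDC and TolDC_LPS. Prg2, which encodes a granule protein of eosinophils, was at 18.63 to 78.4 CPM in BMDC, 10.31 to 65.94 in BMDC_LPS, 20.27 to 126.0 in TolDC and 26.8 to 104.3 in TolDC_LPS. Epx, which encodes another, was at 5.257 to 16.14, 2.181 to 15.94, 3.768 to 20.54 and 3.329 to 15.33 CPM in the same order. The part of eosinophils in the levels of Tlr11 was not tested.

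The promoter sequence of Tlr11 is shown because this receptor differed most between the groups. Its window, on GRCm38.p6 at chr14:50357664-50357913, plus strand, from RefSeq, holds a match to the interferon-stimulated response element in capitals, 122 bases before the start site.
Tlr11: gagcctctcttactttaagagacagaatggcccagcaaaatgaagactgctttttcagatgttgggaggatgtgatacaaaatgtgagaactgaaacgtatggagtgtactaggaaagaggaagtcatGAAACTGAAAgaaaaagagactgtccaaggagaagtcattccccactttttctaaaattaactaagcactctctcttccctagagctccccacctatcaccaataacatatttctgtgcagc
This element occurs in 2.98% of the 32851 windows. It was also found in the window of Tlr6, in a pair of overlapping matches on the opposite strand, with other bases at its free positions. A receptor that rose and one that fell with LPS thus both hold a match to this pattern. A search for the vitamin D response element, found in 0.0396% of windows, gave no match in the 8 receptors with an entry. C/EBP and PU.1 core patterns were searched as well, and occur in 9.56% and 23.3% of windows. C/EBP matches were found for Tlr3, Tlr6 and Tlr8. PU.1 matches, left in small letters, were found for Tlr1, Tlr8, Tlr9, Tlr11 and Tlr13.

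Markers of other cells moved between the groups as well. The summed level of 5 genes of conventional type 2 dendritic cells was 2508.9 to 2566.3 CPM in BMDC and 1044.8 to 1068.8 in BMDC_LPS. In TolDC it was 1990.2 to 2021.0 CPM and in TolDC_LPS 1136.0 to 1152.9, with Cd209a at 0 in both TolDC groups. Mgl2 gave most of the fall with LPS in both kinds of cell. It was at 1586.1 to 1603.7 CPM in BMDC and 80.71 to 87.78 in BMDC_LPS. Clec10a was also lower with LPS. Irf4 was higher with LPS in BMDC and lower in TolDC. Sirpa overlapped between BMDC and BMDC_LPS and was higher in TolDC_LPS than in TolDC. The summed level of 6 genes of conventional type 1 dendritic cells was carried by Wdfy4, Batf3 and Clec9a, with Xcr1 and Cadm1 near 0. It was 426.5 to 470.8, 249.5 to 256.4, 300.2 to 306.9 and 143.0 to 150.2 CPM in the same order of groups. Batf3 was higher with LPS, and Wdfy4 and Clec9a lower. The 4 genes of monocytes summed to 1113.3 to 1175.0 CPM in BMDC and 292.2 to 558.9 in BMDC_LPS, but to 60.96 to 99.09 in TolDC and 179.2 to 356.3 in TolDC_LPS. The 8 genes of macrophages summed to 491.3 to 516.5 CPM in BMDC, 406.5 to 571.7 in BMDC_LPS, 505.9 to 517.9 in TolDC and 820.8 to 1086.6 in TolDC_LPS. Of plasmacytoid dendritic cells, in which Tlr7 and Tlr9 are abundant, 6 genes summed to 113.6 to 117.0 CPM in BMDC, 326.3 to 364.0 in BMDC_LPS, 77.65 to 81.31 in TolDC and 239.2 to 261.6 in TolDC_LPS. Like Tlr9, this sum was higher with LPS and lower in TolDC than in BMDC. Most of it was Bst2, which interferon also induces in other cells, at 69.13 to 358.5 CPM, while Siglech was at 0 in 3 groups and at or under 0.0430 CPM in BMDC. The part of the cells these lists mark in the receptor values was not tested.

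The proteins around the receptors were followed in lists written from general knowledge. Their counts are to be read against the shares of all genes called higher and lower, which were 36.7% and 36.4% with LPS in BMDC, 35.4% and 35.9% with LPS in TolDC, and 32% and 30.4% between TolDC and BMDC without LPS. The median log2 change over all genes was near 0 in each. Of 6 accessory and ligand-delivery genes, 2 rose and 3 fell with LPS in BMDC, and likewise in TolDC (medians -0.29 and -0.56), shares near those of all genes. Cd14, which hands LPS to Tlr4, rose by 4.43 (log2, SE 0.0535, adjusted p = 2.31e-21) in BMDC, from 33.6 ± 2.05 to 722 ± 13.7 CPM, and by 4.26 in TolDC (SE 0.0531, adjusted p = 2.47e-21), from 35.0 ± 2.12 to 669.7 ± 18.1 CPM. While Tlr4 fell, Ly96, which binds the lipid beside it, rose by 1.59 in BMDC (adjusted p = 8.30e-12) and 1.20 in TolDC (adjusted p = 8.22e-10). Cd180, a receptor-like relative of Tlr4, was higher in TolDC than in BMDC without LPS by 0.36 (adjusted p = 2.35e-05).

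Of 15 genes for folding, trafficking and processing of the receptors, 2 rose and 11 fell with LPS in BMDC, and 5 rose and 6 fell in TolDC (medians -0.52 and -0.09). The counts in TolDC lie near the 35.4% and 35.9% of all genes. In TolDC without LPS 4 were higher and 7 lower than in BMDC (median -0.10), where 32% and 30.4% of all genes were. Slc15a3, an endosomal transporter of histidine and bacterial peptides, rose by 1.87 in BMDC (log2, adjusted p = 1.52e-18) and 1.70 in TolDC (adjusted p = 5.29e-18). Ctsk, a lysosomal protease, was lower in TolDC than in BMDC, with a log2 difference of -3.66 (adjusted p = 4.29e-18), at 8.14 ± 0.490 against 103 ± 4.64 CPM. Unc93b1, the chaperone of the endosomal receptors, chosen after its values were seen, was higher in TolDC by 0.68 (adjusted p = 1.75e-11), at 1177.7 ± 22.4 against 736 ± 20.2 CPM, while 5 of the 6 endosomal receptors were lower there.

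Of 6 nucleases that supply or remove ligands of the endosomal receptors, 2 rose and 4 fell with LPS in BMDC and in TolDC (medians -0.80 and -0.83), where 36.4% and 35.9% of all genes fell. Of these, Rnaset2a and Rnaset2b are near-identical copies whose counts are uncertain. Dnase2a, which degrades DNA in lysosomes, fell by 1.87 in BMDC (log2, adjusted p = 4.72e-18) and by 1.48 in TolDC. Pld4, an exonuclease that removes ligands of Tlr7 and Tlr9, fell by 1.90 in TolDC (adjusted p = 2.66e-16) and by 1.61 in BMDC. Without LPS it was higher in TolDC than in BMDC by 0.97 (adjusted p = 7.02e-12).

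Of 10 adaptors and proximal kinases, 8 rose and 1 fell with LPS in BMDC, and 7 rose and 1 fell in TolDC (medians 0.63 and 0.50), where 36.7% and 35.4% of all genes rose. Traf6, the ubiquitin ligase downstream of Myd88, rose by 1.13 in BMDC (log2, adjusted p = 5.41e-14) and by 0.95 in TolDC. Irak2, a kinase-like protein of the Myd88 complex, rose by 0.62 in BMDC and by 1.46 in TolDC (adjusted p = 1.03e-14). In TolDC it started from a level that was lower than in BMDC (log2 difference -1.17, adjusted p = 5.77e-13). Of 8 proximal inhibitors, 3 rose and 2 fell with LPS in each kind of cell (medians -0.05 and -0.24), near or under the shares of all genes. Tnfaip3, a deubiquitinase that limits NF-kB signalling, rose by 2.28 in BMDC (adjusted p = 7.89e-19) and by 1.87 in TolDC. Irak3, an inhibitory relative of Irak2, rose by 2.48 in TolDC (adjusted p = 5.22e-10) and by 1.76 in BMDC. Sigirr, an inhibitory receptor with a TIR domain, was lower in TolDC than in BMDC without LPS, with a log2 difference of -1.03 (adjusted p = 1.87e-06).

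Tlr12 and Tlr5 were measured beside the 10 receptors. Tlr12, a partner of Tlr11 in the recognition of profilin, fell with LPS by 2.34 in BMDC (log2, adjusted p = 1.58e-06) and by 2.78 in TolDC (adjusted p = 2.57e-07). Unlike Tlr11 it did not pass between TolDC and BMDC without LPS, at 1.80 ± 0.336 against 2.08 ± 0.403 CPM (adjusted p = 0.506), and the difference between both genes was not tested. Tlr5, the receptor for flagellin, was at a mean of 0.139 CPM or less in every group and was not tested.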

How the data were processed

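Each of the 12 deposited tables gives raw read counts per gene, which the authors made with cutadapt and STAR against mm10 (GRCm38), per the submitters' processing notes, from stranded mRNA libraries (Illumina Ligation kit). The notes also name edgeR and limma and give no versions. Counts of column 4 were used, whose total was 35.2 to 37.3 times that of the opposite strand. Reads matching several places (9.34% to 9.85%) are not in the counts, and a row for EGFP, with 0 counts, was left out. The filter of edgeR 4.0.16 (R 4.3.3) on 4 groups kept 13141 genes. A robust quasi-likelihood model with TMM scaling (factors 0.945 to 1.04) was fitted to all 12 libraries. The fit was checked on simulated counts with the same spread for every gene and few changed genes, unlike these data. Adjusted p-values were taken over all genes tested. SE is the log2 change divided by the square root of F. Alternatives used DESeq2 1.42.0, limma 3.58.1, other scaling, filters, counts, lengths and samples. Exon lengths come from GENCODE M21 and promoters from RefSeq GRCm38.p6. Named genes were, per receptor, the 2 most correlated, and per list, the called member with the largest change and at least 5 CPM. Ly96, Tlr12, Tlr5 and the marker genes were named after their values were seen. Receptors and lists were chosen with earlier results of these data known.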

Additional observations from a re-analysis of the deposited data

Results flagged for a closer look

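In 6 receptors the response to LPS in TolDC differed from that in BMDC by the interaction test (edgeR, adjusted over all genes tested). The response in TolDC minus that in BMDC, on the log2 scale, was -0.62 for Tlr1 and 0.79 for Tlr2 among the surface receptors. Among the endosomal receptors it was 0.80 for Tlr7, 1.22 for Tlr8, 1.43 for Tlr13 and -4.18 for Tlr11. For Tlr11 the size of the difference rests on 1, 1 and 3 counts in the TolDC_LPS libraries.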

How the results depend on the processing

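Of 50 changes of the 10 receptors in 5 comparisons, 44 kept their direction and their side of the threshold in up to 20 alternatives each, and 49 kept their direction. The one that turned was Tlr3 between TolDC and BMDC without LPS, at 0.02 without the third TolDC library, within a range of -0.24 to 0.02 when single libraries were left out (adjusted p-values over all alternatives 0.354 to 0.945). With LPS in BMDC, endosomal receptors called higher were 2 with unstranded counts and with a replicate block, and 1 to 2 when single libraries were left out. Surface receptors called lower in TolDC without LPS were 1 with no filter and with only the 2 groups compared, and 1 to 2 without single libraries. Surface receptors called higher in TolDC with LPS were 2 with DESeq2, limma-voom, only the 2 groups compared, a replicate block, and without the 4 libraries numbered 1, and 1 to 2 without single libraries. For the difference between LPS responses, surface receptors called higher were 2 with no filter, a replicate block, and without the 4 libraries numbered 1 (1 to 2 without single libraries), and endosomal receptors called lower were 2 with a replicate block (1 to 2 without single libraries). These counts follow from Tlr2, Tlr3 and Tlr4 crossing the threshold. With the longest transcript as length the surface share was 43.2% in BMDC and 47.6% in TolDC. The numbers in the library names did not pair the samples by the rule used: of 18 pairs with the same number, 1 correlated below 0.1 (0.09104 to 0.4659), although 10 of 12 libraries correlated best with one of their own number. Depth limits Tlr11 in TolDC_LPS and Tlr3 throughout.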
